A study of Mus musculus with 7 samples.

Results

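Floor plate cells were examined in the control E8.5 library of a single-cell RNA sequencing study of sorted Wnt1-Cre;ROSA-EGFP cells of mouse embryos. A kept cell had at least 1000 genes and at most 10% of its unique molecular identifiers (UMIs, each standing for 1 captured RNA molecule) from mitochondrial genes. A floor plate cell also had at least 1 UMI of Shh and at least 1 UMI of Foxa2. This rule gave 113 of the 5874 kept cells at E8.5, or 1.92% (exact 95% interval 1.59 to 2.31%), among 58432 kept cells in all 7 libraries. Shh and Foxa2 chose the cells, so their levels are a description. The study sorted EGFP-positive, DAPI-negative cells to follow neural crest and to ask how loss of Tbx1 affects it. Control embryos had the genotype Wnt1-Cre/+;ROSA-EGFPf/+ on a mixed Swiss-Webster background, and the anterior part of the embryo was taken at E8.5. There was 1 control library at E8.5, 1 at E9.5 and 2 at E10.5. The other 3 libraries (1 at E9.5, 2 at E10.5) are titled Tbx1 null, although their genotype label reads Wnt1-Cre/+;Tbx1+/-;ROSA-EGFPf/+ and the study's own sample list gives Tbx1-/-. Each library was a pool of embryos, so cells share their library and E8.5 has no replicate. For this reason no test was run, and all 95% intervals cover counting error only.

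The floor plate is a strip of glial-like cells at the ventral midline of the neural tube. Notochord and prechordal mesoderm beneath it release Sonic hedgehog (Shh), which induces Foxa2 in the midline cells, and these then release Shh themselves. Shh binds the receptor Ptch1, frees Smo and turns the Gli factors from repressors to activators, so that Ptch1 and Gli1 are both members and targets of the pathway. Floor plate cells also make guidance proteins for growing axons. Wnt1-Cre is driven by control elements of Wnt1, a gene of the dorsal neural tube and midbrain, so its lineage labels neural crest and also cells that stay in the neural tube.

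Foxa1 and Nkx2-9 did not set the rule, but they were named as markers with earlier results of these data known. Their high levels in these cells are therefore a description too. Foxa1, a forkhead factor related to Foxa2 (mm10 chromosome 12, 57540628 to 57546916), had 108 CPM (UMIs per 1000000 UMIs of the group, 94.4 to 123) in floor plate cells and 0.876 CPM in all other kept cells. It was found in 89 of 113 cells, with 0 to 7 UMIs per cell and a median of 2. Nkx2-9, a homeobox gene of the ventral midline (chromosome 12, 56611389 to 56613284), had 241 CPM (221 to 263) against 12.2 CPM and was found in 98 cells, with a median of 3 and at most 26 UMIs. Almost every cell thus held at least 1 of the other markers at a depth of 6584 to 45809 UMIs. For the genes that set the rule, Shh (chromosome 5, 28456815 to 28467256) had 1 to 16 UMIs per cell with a median of 3, and Foxa2 (chromosome 2, 148042877 to 148046969) had 1 to 9 with a median of 2. Thinned to 5000 UMIs per cell, 47.8% of floor plate cells had a Foxa1 UMI (38.3 to 57.4%), and none of 1971 crest cells did. Crest cells here are kept cells with a Twist1 UMI and no Sox2 UMI, which should lack these genes. The corresponding shares for Nkx2-9 were 59.3% and 0.152%.

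Cells at the edge of the rule differed in which markers they held. The 5 cells just inside it, with exactly 1 UMI of each gene, had 155 CPM of Foxa1 (80.1 to 271) and 465 CPM of Nkx2-9 (326 to 644). The 59 cells with at least 2 UMIs of each had 140 CPM and 231 CPM. Just outside it, the 29 cells with Shh and no Foxa2 UMI had 56.5 CPM of Foxa1 (38.1 to 80.6) and 107 CPM of Nkx2-9 (81.3 to 139). The 164 cells with Foxa2 and no Shh UMI had only 16.3 CPM of Foxa1 (12.5 to 20.9), yet 307 CPM of Nkx2-9 (290 to 325) and 107 CPM of Ptch1 (96.8 to 118). They had 48.5 CPM of Nkx6-1 (41.7 to 56.0), against 123 CPM in floor plate cells, and their Ptch1 level was below the 160 CPM (143 to 178) of floor plate cells. Of these 4 genes, Nkx2-9 was thus the one not lower in cells with Foxa2 alone. The rule moves with depth, since 44 cells met it after each cell was thinned to 5000 UMIs.

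**Figure D1:**
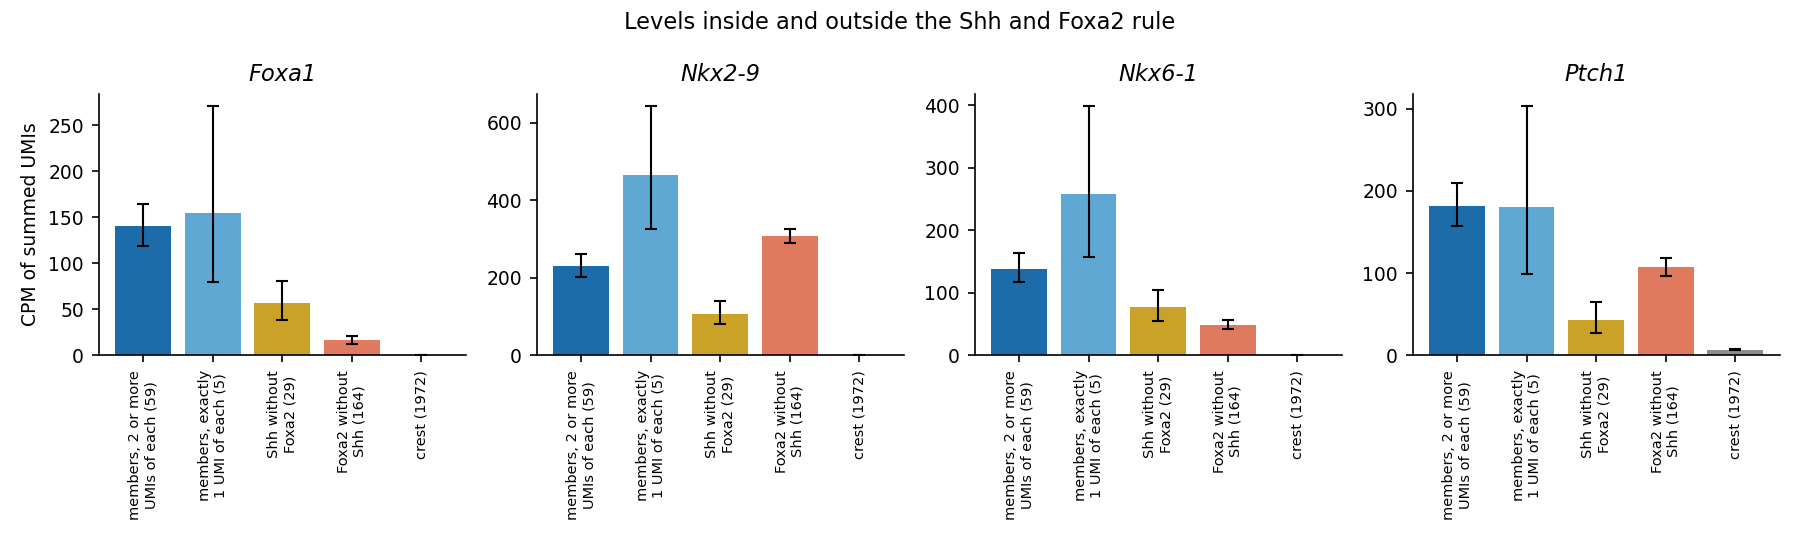
CPM of summed UMIs (bars, y axis) of Foxa1, Nkx2-9, Nkx6-1 and Ptch1 in floor plate cells with 2 or more UMIs or exactly 1 UMI of Shh and Foxa2, in cells with only 1 of the 2 genes, and in crest cells, with the number of cells in brackets and 95% Poisson intervals as error bars. Foxa1 is 140 CPM in the first class and 16.3 CPM in cells with Foxa2 and no Shh UMI, while Nkx2-9 is 231 and 307 CPM.

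The cells also lay together when the library was clustered without Shh, Foxa2, Nkx2-9 and Foxa1. At Leiden resolution 1, a cluster of 198 cells held 107 of the 113 floor plate cells (94.7%). This cluster also held 65 cells with Foxa2 and no Shh UMI and 16 with Shh and no Foxa2 UMI, and it was led by Nkx2-1, Shh, Foxa1, Hesx1 and Calca. Of the other 6 cells, 2 fell in a cluster led by Trh, Mab21l2 and Apcdd1, 2 in one led by Actc1 and Myl7, and 1 each in clusters led by Fgf8 and by Hoxb1. Among the 20 nearest cells of a floor plate cell a median of 60% were floor plate cells. The mean was 55.7%, against a mean of 0.611% for other kept cells, and 4 floor plate cells had none. The highest doublet scores took out 5 floor plate cells (4.42%) and 4.89% of the other cells.

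The label was checked against markers of other cells the sort could hold, but no list of prechordal genes was made. Neural progenitor genes were present: 105 of 113 cells had UMIs of at least 3 of the 9 genes of that list. Sox2, which marks neural stem and progenitor cells, was found in 103. The 9 genes summed to 661 CPM, against 390 CPM in other cells, and Sox2 was found in 48.2% of other cells. How many other cells had at least 3 of the 9 genes was not counted. Genes of the notochord list were low. T and Noto were at 0, as was Tbx6, which is a gene of paraxial mesoderm rather than notochord. The 6 genes of the list summed to 7.17 CPM, against 4.62 CPM in other cells. No cell had 3 or more of them and 12 had 1 or 2, and Chrd, a BMP antagonist of the notochord, had 3 UMIs (1.43 CPM) against 0.0724 CPM, a ratio of 19.8 (3.50 to 76.9). Of 12 endoderm genes, Sox17, Cdh1, Epcam, Cldn7, Trap1a and Pyy were at 0, but the list summed to 149 CPM against 35.6 CPM in other cells. This sum came mostly from Spink1, a trypsin inhibitor (77.4 CPM), Krt18 (36.8 CPM), Krt8 (18.6 CPM) and Apela, a peptide hormone (15.3 CPM), and 12 cells had UMIs of 3 or more of the genes. Crest genes summed to 57.4 CPM against 490 CPM in the other cells, Foxd3 was at 0, 10 cells had a Twist1 UMI and 3 a Sox10 UMI, and 5 cells had 3 or more crest genes. Surface ectoderm, heart and mesoderm, and blood and endothelium genes summed to 2.39, 5.74 and 0.478 CPM. The part of other cell types in these UMIs was not tested, and prechordal cells were not checked for. Gsc, a homeobox gene of prechordal tissue, had 16.2 CPM in floor plate cells against 0.427 CPM. It had 41.8 CPM in the forebrain cells and 2.79 CPM in the En1 cells of the split described below.

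Summed UMIs of the floor plate cells (2092502 in all) were next compared with those of all other kept cells (138061538), over 8365 genes with a mean of at least 5 CPM in the 2 groups. Of these genes, 578 were at least 2-fold higher in floor plate cells (6.91%) and 210 at least 2-fold lower (2.51%), with a median log2 ratio of 0.07 over all genes. With TMM factors, which rest on the bulk of genes rather than on totals, the counts were 448 and 277. The share of higher genes among those past 2-fold was then 61.8% rather than 73.4%, as all log2 ratios shifted by -0.13. Because the limit is a mean over both groups, a gene near 0 in one group was compared only if it was high in the other, and its direction was then fixed by the limit. Counts over the compared genes of a list are therefore descriptions and support nothing about the list. Without the 12 cells with 3 or more endoderm genes, 625 genes were at least 2-fold higher and 222 at least 2-fold lower. Of the 106 named genes past 2-fold, 105 then stayed past it in the same direction. The 106 include genes picked for the most extreme ratios in these data, so that count is a description only. The median floor plate cell had 17472 UMIs and the median other cell 23194. The plot of log2 ratios by list shows each compared gene and each list's median.

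**Figure D2:**
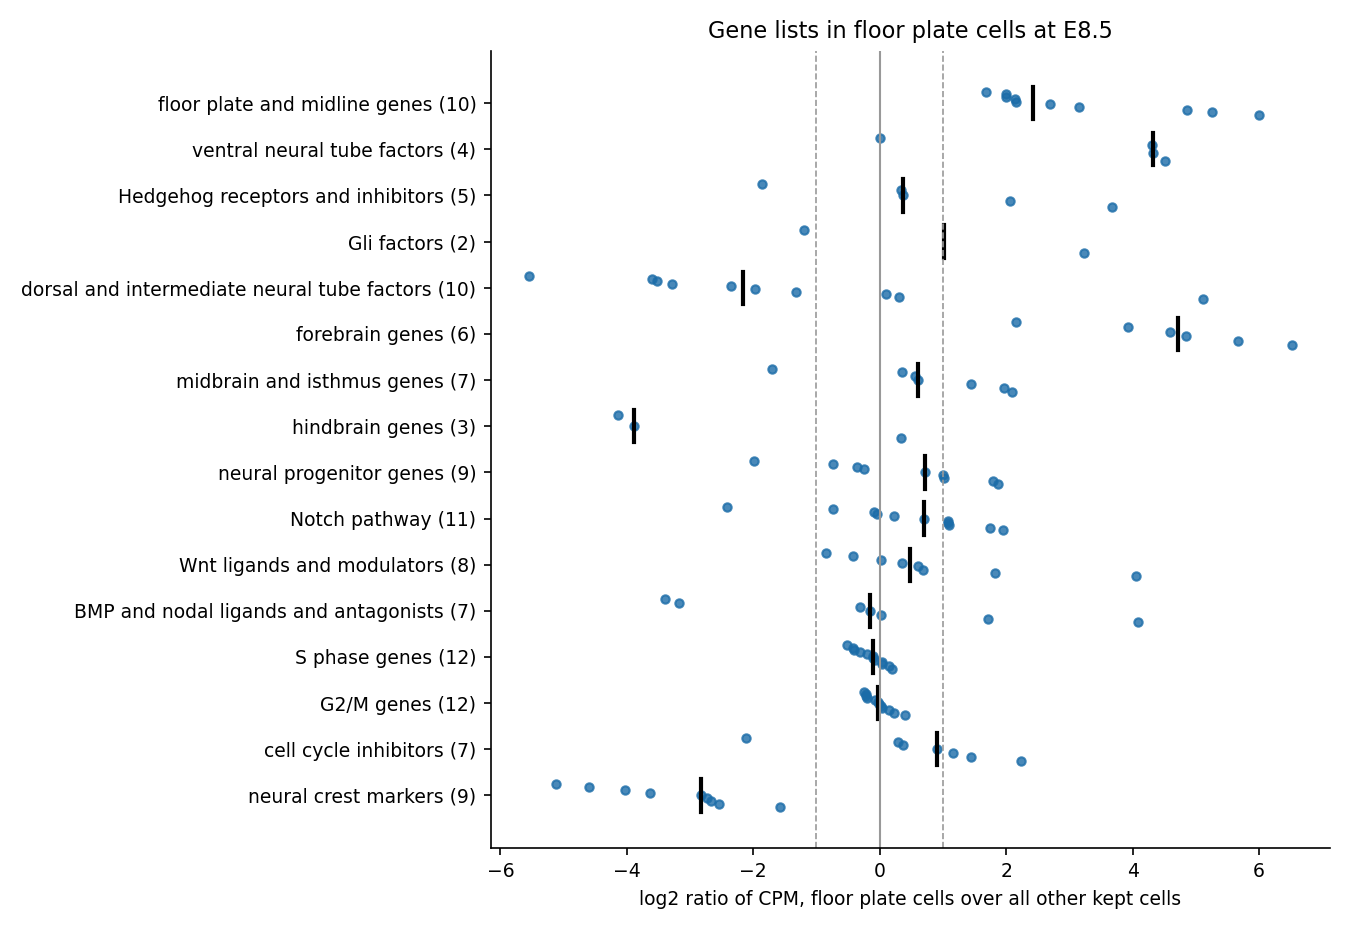
Log2 ratio of CPM in floor plate cells over all other kept cells at E8.5 (x axis) for the genes of 16 lists (rows, number of compared genes in brackets). Points are genes, black bars are list medians and dashed lines mark 2-fold; the 10 compared floor plate and midline genes lie to the right of 1 and the 9 compared crest genes to the left of -1, where the limit on low genes fixes the side of a gene near 0 in one group.

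Hedgehog genes were examined by their role. Among ligands and the proteins that release them, Shh was the only one compared: Ihh and Dhh were at 0, and Disp1, needed to release Shh from the cell, had 6 UMIs. Ptch1, the Shh receptor and a target of the pathway (chromosome 13, 63508328 to 63573598), had 160 CPM (143 to 178) in floor plate cells and 12.5 CPM in other cells, a ratio of 12.8 (11.3 to 14.4). It was found in 100 of 113 cells, with a median of 3 and at most 10 UMIs. Gli1, an activator and target, had 10.0 CPM (6.21 to 15.3) against 1.09 CPM. Smo, the transducer, and Sufu, an inhibitor that holds the Gli proteins back, were near the other cells, at 43.5 against 34.4 CPM and 13.4 against 10.6 CPM. Ptch1 thus stood above the other cells while Smo and Sufu did not. Gli1 passed the limit on low genes only through its level in floor plate cells, so the limit fixed its direction. Hhip, another target, had no UMI in floor plate cells.

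Other receptors and repressors of the pathway were mixed. Gas1, a Shh co-receptor that Shh signalling represses, had 11.5 CPM (7.35 to 17.1) in floor plate cells and 42.5 CPM in other cells, 3.70-fold lower. Cdon, another co-receptor, had 1 UMI in all 113 cells (0.478 CPM, 0.0121 to 2.66) against 9.41 CPM, and Boc, the third, had 3 UMIs (1.43 CPM) against 3.96 CPM, a ratio of 0.362 (0.0744 to 1.06). Lrp2, an endocytic receptor that aids Shh uptake in the ventral forebrain, was at a higher level, with 13.9 CPM (9.28 to 19.9) against 3.38 CPM. Its level was within 2-fold of the Otx2 neural cells described below. Gli3, the main Gli repressor, had 10.0 CPM (6.21 to 15.3) against 23.4 CPM, a 2.34-fold lower level. Of the 11 receptors and inhibitors, 5 passed the limit on low values. Among these 5, Ptch1 and Lrp2 were at least 2-fold higher and Gas1 was lower, beside 6.91% and 2.51% of all compared genes. The median log2 ratio of the 5 was 0.36. Hhip, a secreted inhibitor and target, was at 0, which with 2092502 UMIs allows up to 1.43 CPM.

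Of the 17 floor plate and midline genes, 10 passed the limit, several of them, such as Ntn1, Slit3, Vtn and Gsc, only through their level in floor plate cells. Spon1, which encodes the secreted floor plate protein F-spondin (chromosome 7, 113765998 to 114043370), had 80.8 CPM (69.0 to 93.9) against 20.4 CPM and was found in 83 cells. Ntn1, the axon attractant netrin, had 23.4 CPM (17.3 to 31.0) against 2.66 CPM, and the repellent Slit3 had 15.3 CPM (10.5 to 21.6) against 0.529 CPM. Sulf1, a sulfatase that trims heparan sulfate outside the cell, had 38.2 CPM (30.3 to 47.6) against 5.96 CPM. Vtn, the matrix protein vitronectin, had 13.4 CPM (8.89 to 19.3) against 0.210 CPM. Gsc, which this list holds although it is a homeobox gene of prechordal tissue, had 16.2 CPM (11.2 to 22.7) against 0.427 CPM. Its level does not tell floor plate from prechordal cells. Ferd3l, a basic helix-loop-helix factor of the floor plate, fell short of the limit, with 14 UMIs in 14 cells (6.69 CPM, 3.66 to 11.2) against 0.0724 CPM in other cells. Corin was at 0 in all kept cells, and Foxj1, a gene of ciliated cells, had 3 UMIs.

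Ventral neural tube factors were mixed: 4 of 7 passed the limit. Of these 4, Nkx2-9, Nkx6-1 and Nkx2-2 were at least 2-fold higher, beside 6.91% of all compared genes. Nkx2-9 is one of the named markers described above. Nkx2-2 passed the limit only through its level in floor plate cells, so the limit fixed its direction. Nkx6-1, a homeobox factor of the ventral neural tube (chromosome 5, 101658139 to 101664996), had 123 CPM (109 to 139) against 5.40 CPM and was found in 89 floor plate cells, with a median of 2 and at most 8 UMIs. Nkx2-2 had 10.0 CPM (6.21 to 15.3) against 0.507 CPM, Nkx6-2 was level at 11.0 against 11.1 CPM, while Olig2 of motor neuron progenitors was at 0. Of 10 compared dorsal and intermediate factors, 7 were at least 2-fold lower and Dbx1 was higher, beside 2.51% and 6.91% of all compared genes, with a median log2 ratio of -2.16. Pax3 and Msx1, which pattern the dorsal neural tube, had 2.87 CPM each (1.05 to 6.24) against 37.8 and 30.4 CPM. Pax6, which Shh represses in the ventral tube, was at 0 in floor plate cells against 11.2 CPM, at least 7.78-fold lower. Pax7 was also at 0, against 4.88 CPM, at least 3.40-fold lower.

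Beyond these lists, the genes with the highest ratios included secreted factors. Calca, which encodes calcitonin and its related peptide, had 138 CPM (122 to 155) against 1.55 CPM, a ratio of 88.8 (74.1 to 106). It was found in 74 of 113 floor plate cells, with up to 29 UMIs in a cell, and in 2.88% of other cells. Tgfb2, a TGF-beta ligand, had 182 CPM (164 to 201) against 2.69 CPM, a ratio of 67.6 (58.4 to 78.2), and was found in 92 cells with a median of 2 UMIs. Igfbp5, which binds insulin-like growth factors, had 175 CPM (157 to 194) against 9.44 CPM. Hsd11b2, an enzyme that inactivates glucocorticoids, had 105 CPM (91.3 to 120) against 8.03 CPM and was found in 92 cells. Pcdh8, a protocadherin, had 59.7 CPM against 3.55 CPM, and Map2, a microtubule-associated protein, had 40.1 CPM against 3.07 CPM. Ifitm1, an interferon-induced membrane protein, had 342 CPM (317 to 368) against 35.3 CPM. Aldh1a1, which makes retinoic acid and is known from dopaminergic progenitors of the midbrain floor plate, had 21.0 CPM (15.3 to 28.2) against 0.304 CPM. Among genes of dopamine neurons themselves, Th and Pitx3 were at 0 and Nr4a2 had 4 UMIs. Lmx1a and Lmx1b, of the floor plate and midline list, were at least 2-fold higher than in all other kept cells. Lmx1a was also at least 2-fold higher than in the Otx2 neural cells described below, and Lmx1b was within 2-fold of them.

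Genes that respond to BMP, the dorsal counterpart of Shh, were split. Id1, a BMP target, had 44.4 CPM (35.9 to 54.5) in floor plate cells and 469 CPM in other cells, 10.6-fold lower, and was found in 35 floor plate cells against 88.8% of the others. Id2 had 40.1 CPM (32.0 to 49.7) against 362 CPM, 9.03-fold lower. Id3 did not share this difference, at 775 CPM (738 to 814) against 863 CPM, with 2 to 60 UMIs in every floor plate cell. The ligand genes Bmp7 and Bmp4 were higher, at 16.7 against 5.15 CPM and 13.4 against 0.797 CPM, the latter from 28 UMIs in 6 cells, 17 of them in 1 cell. Among Wnt genes, Dkk1, a secreted Wnt antagonist, had 135 CPM (120 to 152) against 8.17 CPM, but came from 35 cells with up to 49 UMIs, and Wnt5b had 24.8 CPM against 7.06 CPM. Wnt1, whose control elements drive the Cre, had 45.4 CPM (36.7 to 55.5) and was found in 38 floor plate cells. After thinning, 19.5% of floor plate cells had a Wnt1 UMI (12.6 to 28.0%), against 3.10% of crest cells.

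Notch genes and cell cycle inhibitors were also mixed. Hes1, a repressor of neuronal genes, had 233 CPM (213 to 255) against 60.3 CPM and was found in 107 cells, with a median of 4 UMIs. Hes3, of the isthmus and early neural plate, had 10.0 CPM (6.21 to 15.3) against 54.5 CPM, 5.44-fold lower, but its 21 UMIs came from 6 cells and 15 of them from 1 cell. Of 11 compared Notch genes, Notch1, Notch2, Notch3, Hes1 and Lfng were at least 2-fold higher and Hes3 was lower, beside 6.91% and 2.51% of all compared genes. With TMM factors only Notch2 and Hes1 were higher. The neurogenic genes Neurog1 and Neurog2 were nearly absent, with 2 and 3 UMIs in all floor plate cells. Cdkn1c, which encodes the cell cycle inhibitor p57, had 238 CPM (217 to 260) against 50.4 CPM and was found in 103 floor plate cells, and Btg1 had 107 CPM against 39.2 CPM. Gadd45a, a growth arrest gene, had 10.5 CPM (6.59 to 15.9) against 46.7 CPM, 4.44-fold lower. Of 7 compared cell cycle inhibitors, 3 were at least 2-fold higher (Cdkn1c, Btg1 and Btg2), Gadd45a was lower and 3 were between. Against the Otx2 neural cells described below, Cdkn1c and Btg1 were at least 2-fold higher. Btg2, at 9.08 against 11.6 CPM, and Gadd45a were within 2-fold of those cells. The 12 S phase and 12 G2/M genes were all within 2-fold of the other cells. Their log2 ratios ran from -0.52 (Ccne2) to 0.20 (Mcm7) in the S phase list and from -0.25 (Bub1) to 0.39 (Cenpf) in the G2/M list.

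Crest genes were among those with the lowest ratios. Of 10 crest genes 9 passed the limit, and Sox10, the crest factor of early migration, had 5 UMIs in 3 cells (2.39 CPM) against 63.5 CPM. Snai1, which drives the change from epithelium to mesenchyme, had 3.82 CPM against 50.1 CPM, and Inka1 had 16.7 against 165 CPM. Crabp1, a retinoic acid binding protein, had 203 CPM against 1305 CPM, and 219 of its 425 UMIs lay in 1 cell. These genes set floor plate cells apart from the crest cells that make up much of the other group, so other neural cells were compared as well.

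Regional genes of the floor plate cells were mostly those of the forebrain and midbrain. Of 8 forebrain genes 6 passed the limit, all through their level in floor plate cells, since the whole list summed to 8.42 CPM in the other cells. Of 7 compared midbrain and isthmus genes, Otx1, Otx2 and En1 were at least 2-fold higher than in the other cells and Pax8 was lower. The shares over all compared genes were 6.91% and 2.51%. Otx1 and En1 were within 2-fold of the Otx2 neural cells described below, as was Otx2, which chose those cells. Otx2, which marks forebrain and midbrain (chromosome 14, 48657677 to 48673819), had 193 CPM (175 to 213). It was found in 99 of 113 cells, with a median of 3 and at most 13 UMIs. En1, a gene of the midbrain and isthmus (chromosome 1, 120602418 to 120607992), had 176 CPM (159 to 195) and was found in 71 cells, with at most 13 UMIs. Hesx1 was found in 28 cells, Nkx2-1 of the ventral forebrain in 30, Six3 (chromosome 17, 85613608 to 85629302) in 23 and the eye field gene Rax in 10. Of 13 hindbrain genes, 8 were at 0 and the list summed to 11.0 CPM against 65.0 CPM. Gbx2 of this list was found in 12 floor plate cells. Thinned to 5000 UMIs, 5.31% of floor plate cells had a Gbx2 UMI (1.97 to 11.2%), against 3.05% of other cells. Gbx2 was at least 2-fold higher than in the Otx2 neural cells described below and at least 2-fold lower than in the Hox neural cells. After thinning, 54.9% of floor plate cells had an Otx2 UMI (45.2 to 64.2%) and 48.7% an En1 UMI (39.2 to 58.3%). Hoxa2 and Egr2 had no UMI in the 113 cells at full depth, which allows up to 2.65% of cells with a UMI, and Hoxb1 was found in 1 cell. No floor plate cell had a UMI of Hoxa2, Hoxb2, Hoxa3 or Hoxb3 without an Otx2 UMI, so anterior and posterior floor plate could not be compared. Dissection and the reach of Wnt1-Cre limit which floor plate was sampled, and their part in this was not tested.

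**Figure D3:**
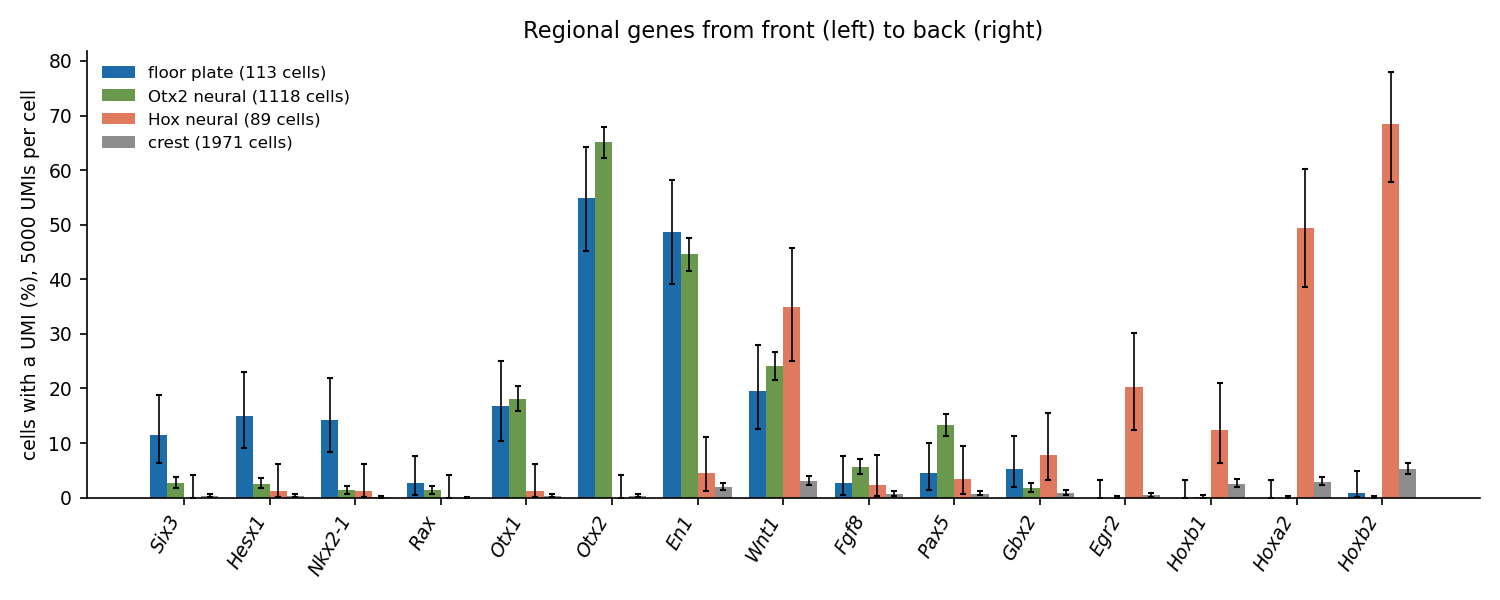
Percent of cells with a UMI (y axis) of 15 regional genes (x axis, ordered from forebrain to hindbrain) after thinning each cell to 5000 UMIs, in floor plate, Otx2 neural, Hox neural and crest cells, with 95% Clopper-Pearson intervals. Floor plate cells reach 54.9% for Otx2 and 48.7% for En1 and 0% for Hoxa2. Hoxa2 is found in 49.4% of Hox neural cells, which it helped to choose, as Otx2 did for the Otx2 neural cells.

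Floor plate cells were also set beside other neural cells of the library. Otx2 neural cells (1120) had a Sox2 and an Otx2 UMI and no UMI of Sox10, Twist1 or the 4 Hox genes above, and they were not floor plate cells. Over 8383 genes, 352 were at least 2-fold higher in floor plate cells than in Otx2 neural cells (4.2%) and 139 at least 2-fold lower (1.66%). Tgfb2 led the higher genes, at 182 against 2.44 CPM, with Foxa1 at 108 against 2.77 CPM and Calca at 138 against 3.81 CPM. Nkx2-1 was also among the highest ratios, at 39.2 against 3.35 CPM, as was Nkx6-1, at 123 against 13.8 CPM. The lower genes were led by Pax6, at 0 against 40.0 CPM, Mab21l2, at 1.43 against 58.2 CPM, and Msx1, at 2.87 against 41.0 CPM. Of 13 compared Notch genes, Notch2 and Hes1 were at least 2-fold higher and 6 were at least 2-fold lower (Dll1, Dll3, Jag1, Hes3, Hes5 and Nrarp), beside 4.2% and 1.66% of all genes compared here, with a median log2 ratio of -0.73. Notch1, Notch3 and Lfng were within 2-fold of these cells. The effectors Hes5 and Hes3 had 28.7 against 178 CPM and 10.0 against 134 CPM. Id2 was also lower, at 40.1 against 233 CPM. The thyrotropin-releasing hormone gene Trh had 8.12 CPM against 83.0 CPM. En1 was near the level of these cells, at 176 against 172 CPM, and so was Otx1, at 41.1 against 38.8 CPM. Wnt1 was found in 24.1% of the Otx2 neural cells after thinning (21.6 to 26.7%), near its 19.5% in floor plate cells. Some other midbrain and isthmus genes were lower: of 8 compared, Pax2 (2.87 against 9.93 CPM) and Pax8 (2.39 against 13.9 CPM) were at least 2-fold lower and none was higher. En2, which missed the limit, had 3 UMIs (1.43 CPM) against 8.15 CPM.

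The 90 Hox neural cells had a Sox2 UMI, a UMI of at least 1 of the 4 Hox genes, and no Otx2, Sox10 or Twist1 UMI. Over 8417 genes, 509 were at least 2-fold higher in floor plate cells (6.05%) and 287 at least 2-fold lower (3.41%). Besides Otx2 and the Hox genes, which chose the cells, Tal2 (110 against 0.574 CPM), Calca (138 against 1.15 CPM) and Six3 (48.3 against 0.574 CPM) were higher. Egr2, a hindbrain gene of rhombomeres, was at 0 against 48.2 CPM, Msx1 had 2.87 against 182 CPM and Msx3 had 2.87 against 173 CPM. Crabp1 was also lower, at 203 against 4632 CPM.

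Floor plate cells were also divided by En1 and forebrain genes. The split was made after their values were seen: 59 cells had an En1 UMI and none of Six3, Rax, Nkx2-1 or Hesx1, 32 had at least 1 of those forebrain genes and no En1, 12 had both and 10 neither. These 5 genes made the split and are no finding of it. Shh, which chose the cells and is a description only, was 158 CPM (135 to 184) in En1 cells and 199 CPM (166 to 238) in forebrain cells, with overlapping intervals. It was 454 CPM (354 to 573) in the 10 cells with neither. Those 10 cells had a median of 12487.5 UMIs, against 17280 in En1 cells and 19591.5 in forebrain cells, and the part of depth was not tested. Foxa1 was 118 CPM (98.4 to 140) in En1 cells and 75.5 CPM (55.5 to 100) in forebrain cells, with overlapping intervals. Ptch1 was 189 CPM (164 to 216) and 130 CPM (103 to 162), with intervals that did not overlap. These marker levels differed by less than 2-fold between the sides.

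**Figure D4:**
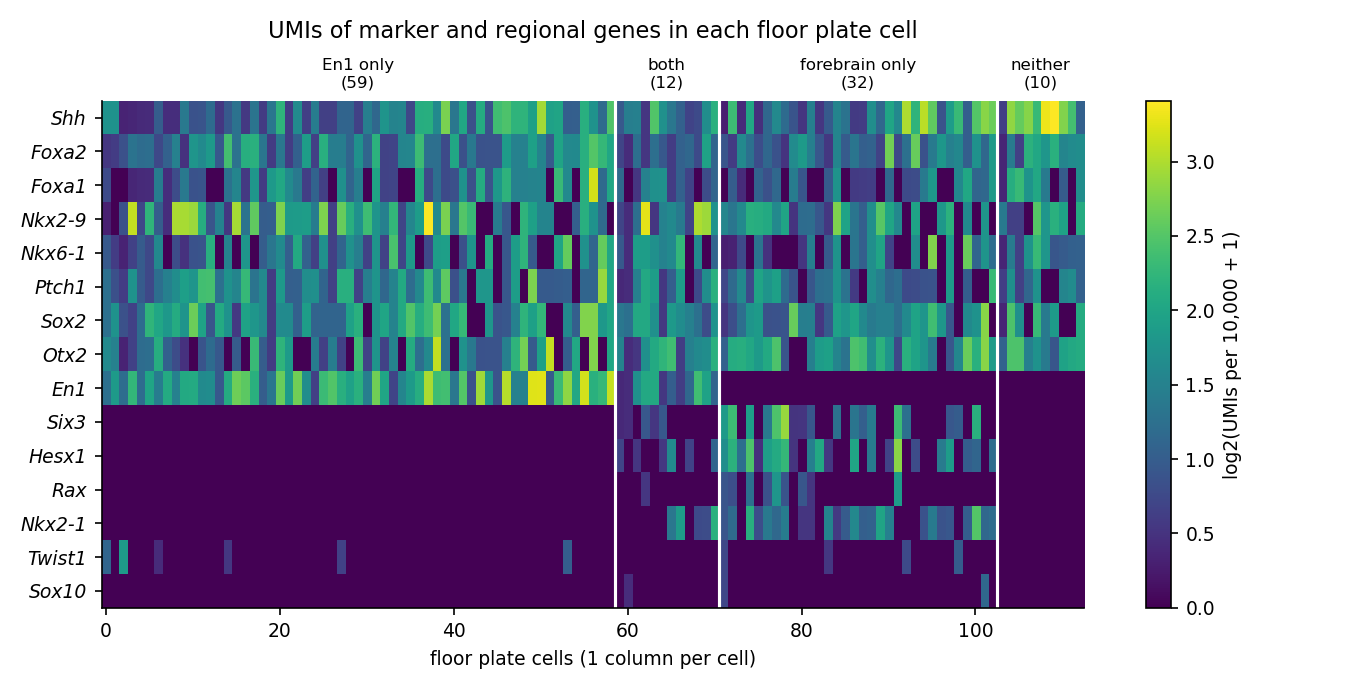
Log2 of UMIs per 10000 plus 1 (colour) of 15 genes (rows) in the 113 floor plate cells (columns), grouped by En1 and forebrain UMIs and ordered by total UMIs within a group. The En1, Six3, Hesx1, Rax and Nkx2-1 rows are split by construction (59 and 32 cells). Shh and Foxa2 are in every cell by the rule, and Nkx2-9 and Ptch1 are found on both sides.

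Over 8414 genes, 423 were at least 2-fold higher in En1 cells than in forebrain cells (5.03%) and 516 at least 2-fold lower (6.13%). Among genes not used for the split, Fgf8, the signal of the isthmus, had 50.2 CPM in En1 cells and 0 in forebrain cells, although its UMIs came from 10 cells with up to 31. Wif1, a Wnt inhibitor, had 43.7 CPM (47 UMIs) against 1.61 CPM (1 UMI). The Wnt target Axin2 had 23.2 against 4.82 CPM, and the FGF target Dusp6 had 100 against 19.3 CPM. Ntn1 was also higher in En1 cells, at 32.5 against 6.43 CPM, as were Vtn, at 17.6 against 3.21 CPM, Aldh1a1, at 30.7 against 4.82 CPM, and Irx3, at 53.9 against 8.03 CPM. Forebrain cells had more Dkk1, with 382 CPM against 8.36 CPM, and Dbx1, with 117 CPM against 0. Fezf2, a forebrain factor, had 80.3 CPM against 0, Bmp4 45.0 CPM against 0 and Gsc 41.8 CPM against 2.79 CPM. Id1 and Id2 were higher there too, at 80.3 against 32.5 CPM and 67.5 against 21.4 CPM. High levels of Dkk1, Dbx1 and Gsc in the floor plate cells as a whole thus came mostly from the forebrain side, and those of Ntn1, Vtn and Aldh1a1 mostly from the En1 side.

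The same rule found few cells elsewhere. It was met by 4 of 8612 kept cells in the control library at E9.5, by 6 of 7351 and 1 of 10259 in the controls at E10.5, by 3 of 10577 in the Tbx1 null library at E9.5, and by 2 of 8820 and 3 of 6939 in the Tbx1 null libraries at E10.5. Shares ran from 0.00975 to 0.0816%, against 1.92% at E8.5, and with 1 library at E8.5 this difference has no replicate check. When cells were instead kept from 200 genes up and to 5% of mitochondrial UMIs, 113 of 5858 cells met the rule at E8.5, 4 of 8724 and 4 of 10546 in the control and Tbx1 null libraries at E9.5, 2 of 5842 and 1 of 10147 in the controls at E10.5 and 1 of 8073 and 3 of 6687 in the Tbx1 null libraries at E10.5. Stage cannot be told apart from the dissection, the kit and the sequencer: E9.5 embryos gave heart, pharyngeal apparatus and neural tube, E10.5 embryos gave heart, the later arches and neural tube, and E8.5 alone used kit version 2 and the NovaSeq sequencer (HiSeq for the others). With so few cells, genotypes were not compared. At most 2 of these cells in a library had a Nkx2-9 UMI and at most 2 a Foxa1 UMI. Of these 19 cells, all but 1, in the Tbx1 null library at E9.5, had a Sox2 UMI. Tbx1 itself had 5.79 and 4.58 CPM in the control and 2.91 and 2.92 CPM in the Tbx1 null libraries at E10.5, and 1.04 and 0.654 CPM at E9.5.

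**Figure D5:**
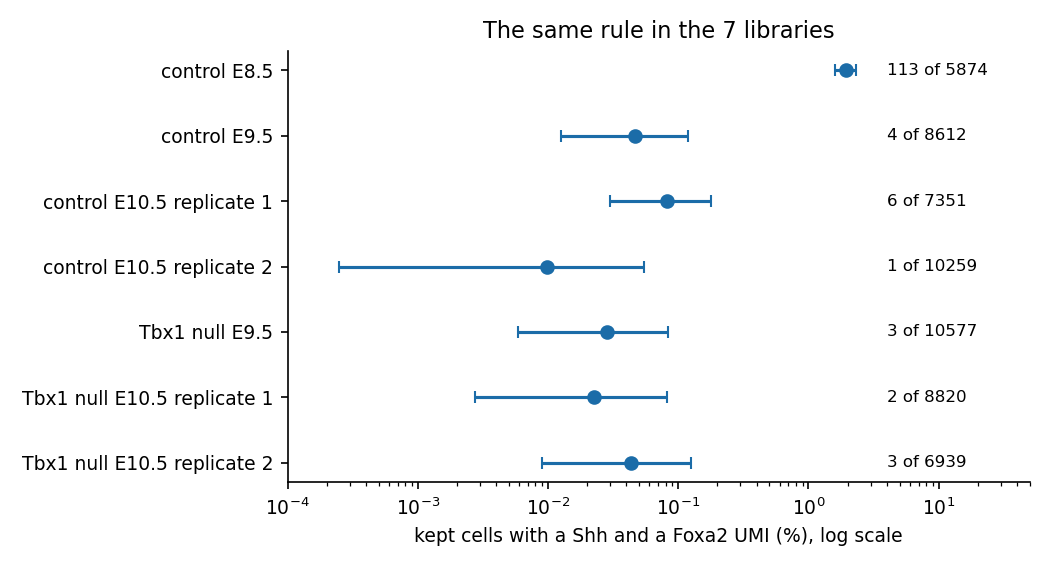
Percent of kept cells with a Shh and a Foxa2 UMI (x axis, log scale) in each of the 7 libraries (rows), as points with 95% Clopper-Pearson intervals and the counts at the right. The E8.5 library stands at 1.92% and the other 6 between 0.00975 and 0.0816%.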

How the data were processed

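RNA of sorted cells from 7 libraries, each a pool of embryos, was counted by the authors with Cell Ranger 6.0.1 against mm10, per the labels and the methods of the study. The deposited unit is raw counts (UMIs) per gene and barcode, with no normalization. The E8.5 library held 5987 barcodes and 140264662 UMIs, and kept cells had a median of 23099.5 UMIs. Between 0 and 2 of its barcodes were shared with each other library. CPM was computed from UMIs summed over the cells of a group, and log2 ratios with 0.5 UMIs added. Intervals are exact Poisson for CPM and Clopper-Pearson for shares, at 95%, and 3 UMIs were taken as the limit for a count of 0. Cells are not replicates and 1 library held all groups compared, so no p-value was computed. Genes named were those of 26 gene lists, plus the 15 highest and 15 lowest ratios over all other cells and the 10 highest and 10 lowest over each neural group, at a mean of at least 20 CPM, without mitochondrial, haemoglobin and sex-linked genes. For the split by En1, the 10 highest and 10 lowest were added after its values were seen. The members and lists were chosen with earlier results of these data known. Doublets were scored and kept, and their removal was an alternative. Clustering used 2000 variable genes, 30 components and 20 neighbours. Gene positions are from GENCODE on mm10, and 32235 of 32285 gene identifiers matched. Counts were simulated as Poisson draws with known 2-fold changes in genes of at least 20 CPM, for the comparison with all other cells. The median log2 ratio recovered was 1.00 for raised genes. These draws hold no unevenness between cells, so they check only the calculation. Python 3.11.15, scanpy 1.11.5, leidenalg 0.10.2 and edgeR 4.0.16 (TMM factors only) were used. Some members of the gene lists are not reported here by name.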

Additional observations from a re-analysis of the deposited data

How the results depend on the processing

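With at least 2 UMIs of Shh and of Foxa2, 59 cells (1.00% of kept cells) met the rule at E8.5, and after thinning to 5000 UMIs 44 did. The percent of kept cells that are floor plate cells at E8.5 was then 0.752%. Genes at least 2-fold higher in floor plate cells than in all other cells numbered 883 with the stricter rule, 151 at a mean of at least 20 CPM, 7249 with no limit on low genes and 1011 after thinning. Lower genes numbered 65 at 20 CPM, 941 with no limit and 351 after thinning. The limits on low genes change how many genes are compared, and the cause of the other moves was not tested. Otx2 was found in 45.1% of floor plate cells at 3000 UMIs and 87.6% without thinning, and En1 in 38.9 and 62.8%. In the other libraries, thinning left 1 cell in the E9.5 control, 2 in E10.5 control replicate 1 and 0 in replicate 2, where the stricter rule also left 0. Of the 106 named genes past 2-fold, 99 to 106 stayed past it under the 11 alternatives run, and all kept their direction except Gm26737 with the stricter rule. The log2 ratio of Gm26737, floor plate over all other cells, was then -3.49 rather than 1.34, and 26 of its 27 UMIs in floor plate cells lay in 1 cell. Restricting the cells to the main cluster, and leaving out cells with a Twist1 or Sox10 UMI, were chosen after seeing the data, and all 106 genes stayed past 2-fold under both. The 106 include genes picked for the most extreme ratios in these data, so these counts are a description only. No paired analysis was possible because the results come from no test and E8.5 has 1 library. Depth limits genes under about 1.43 CPM in floor plate cells, where 3 UMIs are the limit that a count of 0 allows, and no value here has a biological replicate.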

Other observations

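Guidance receptors and adhesion genes gave mixed differences between floor plate cells and all other kept cells. Nrp1, a receptor for semaphorins and VEGF, had 15.3 CPM (10.5 to 21.6) in floor plate cells against 5.89 CPM, and Robo1, a receptor for Slit proteins, had 5.74 CPM (2.96 to 10.0) against 15.6 CPM. Cdh11, a cadherin of mesenchyme, had 6.69 CPM (3.66 to 11.2) against 23.3 CPM. Cdh2, the N-cadherin gene of neural epithelium, had 63.1 CPM against 31.4 CPM, a ratio of 2.01 (1.68 to 2.39) that fell under 2-fold with TMM factors, with at least 2 UMIs of Shh and Foxa2, and after thinning. Tubb3, a neuronal tubulin, had 181 CPM (163 to 200) against 73.0 CPM. Set beside the Otx2 neural cells, Nrp1 was again at least 2-fold higher and Robo1 at least 2-fold lower. Cdh2, Cdh11 and Tubb3 were within 2-fold of those cells.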
